A study of Homo sapiens with 9 samples.

Results

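Unannotated transcript clusters are probe sets that the array's annotation names only by a cluster number and a chromosome position, without a gene symbol or an Entrez identifier. All clusters of the authors' deposited comparison table whose name begins with TSID# and whose Entrez field is blank were taken. There were 1988 of them among 28829 clusters. Expression values existed for 1185 of these 1988 (59.6%), out of 25679 clusters with values. No measured level entered the choice. The arrays came from HEK293, an established human embryonic kidney cell line, 72 h after it had been transfected with empty vector (PCMV) or to express Aire or MBD-VP16. There were 9 arrays, 3 for each group, and the same commercial transfection reagent and complete DMEM were used throughout. The labels call the samples of a group biologic replicates without saying how cultures were kept apart. The p-values therefore measure the spread between these arrays, whose number limits the precision. The labels do not state the species or extent of the expressed proteins, the share of cells that took up plasmid, or the meaning of MBD.

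Many short RNAs lie outside the gene models that such annotation follows. Transfer RNA genes are short, are transcribed by RNA polymerase III from promoter elements inside the gene, and give precursors that are trimmed at both ends before the CCA tail is added. They occur in clusters on several nuclear chromosomes. The mitochondrial genome has its own set, transcribed as part of long precursors from both strands, and copies of mitochondrial DNA are scattered through the nuclear chromosomes. AIRE is the autoimmune regulator, which drives many tissue-restricted genes in the thymus, and VP16 is a viral transcriptional activator. A probe set of this length cannot tell a finished tRNA from its precursor or from a longer transcript that crosses the same bases.

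Levels are RMA values on the log2 scale. Array medians over all clusters ran from 6.11 to 6.23, and over the unannotated clusters from 4.25 to 4.39. Arrays of 1 group correlated at 0.957 to 0.972 across the unannotated clusters. Vector replicate 1 had the widest spread about its group mean, with a residual SD of 0.28 for these clusters against 0.218 to 0.245 on the other arrays. Of the markers named for HEK293, 7 were measured and lay between 5.90 and 10.6, with VIM, KRT8 and KRT18 the highest. The leukocyte markers CD3E and LYZ stood at 4.71 and 3.48. The cluster of AIRE itself stood at 6.43 ± 0.10 (SD, n = 3) with vector and 6.66 ± 0.10 (SD, n = 3) with Aire, a difference that did not pass the test described next (limma adjusted p = 0.213). That of MBD1 rose from 8.19 ± 0.55 to 9.96 ± 0.14 (SD, n = 3) with MBD-VP16 (limma adjusted p = 0.00295). In bulk RNA, fewer cells of a kind and less RNA per cell cannot be told apart.

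Most unannotated clusters were short and dim. Among the 1185 with values, 183 spanned under 70 bases (stop minus start), 169 spanned 70 to 76 bases, the size of a tRNA gene, 453 spanned 77 to 150, 350 spanned over 150 and up to 500, 23 spanned over 500 and up to 2000, and 7 were longer. The commonest length was 71 bases, with 56 clusters. Values existed less often for short clusters, for 183 of 514 clusters under 70 bases (35.6%) and for 169 of 276 tRNA-sized clusters (61.2%), but for 350 of 416 clusters of over 150 and up to 500 bases (84.1%). The median level was 4.33, against 6.18 over all clusters and 6.57 over clusters with an Entrez identifier. By this scale 785 unannotated clusters (66.2%) lay under 5, against 29.4% of all clusters, and 51 reached 8 or more (4.3%), as did 5138 of all clusters. Length classes differed little in their medians, from 3.98 under 70 bases and 4.39 at 70 to 76 bases to 4.54 at over 150 and up to 500 bases. The deposited annotation marks 78 of the 1185 (6.58%) as open to cross-hybridisation, against 10.6% of all clusters. Values were identical on all 9 arrays for 24 of the 1185, in 11 sets whose clusters lie at different positions.

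**Figure D1:**
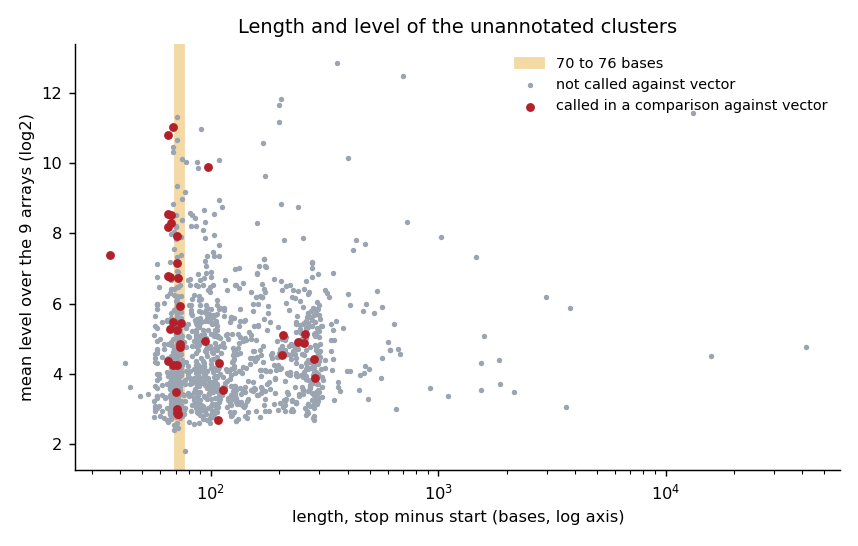
Length (stop minus start in bases, log axis) and mean RMA level over the 9 arrays (log2) of the 1185 unannotated clusters. The shaded band marks 70 to 76 bases, and red points are clusters that passed the test in a comparison against vector. Red points crowd at and just below the band, and none lies beyond 500 bases.

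The brightest unannotated clusters kept their level in all 3 groups. Cluster 7960359 (chr12:3320759-3321117, minus strand, 358 bases) had the highest mean, 12.84, and read 12.88, 12.84 and 12.75 with vector, 12.87, 12.86 and 12.83 with Aire, and 12.88, 12.85 and 12.83 with MBD-VP16. It overlaps TSPAN9, a tetraspanin membrane protein on the opposite strand whose own level was 6.20. That gene rose with both constructs, by 0.40 ± 0.07 (SE) with Aire and 0.44 ± 0.07 (SE) with MBD-VP16 on the log2 scale (limma adjusted p = 0.0236 and 0.00772), while the unannotated cluster differed from vector by 0.03 ± 0.06 (SE) in each comparison (limma adjusted p = 0.832 and 0.821). Cluster 8027352 (chr19:23779350-23780049, 699 bases) averaged 12.49, cluster 8106096 (chr5:71146739-71146942, 203 bases) 11.83, cluster 8040338 (chr2:11724899-11725098, 199 bases) 11.65, and cluster 8036557 (chr19:39109873-39123144, 13271 bases) 11.42. For these 4 clusters the differences from vector lay between -0.03 and 0.16 and none passed (limma adjusted p from 0.367 to 1). Cluster 8036557 overlaps EIF3K, a translation initiation factor subunit on the other strand at a level of 11.24, and only 2 unannotated clusters were longer. The longer ones, cluster 8097058 (chr4:119435150-119476483, 41333 bases) and cluster 7942061 (chr11:68390691-68406617, 15926 bases), were dim at 4.76 and 4.52.

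The brightest tRNA-sized cluster was 8040334 (chr2:11691827-11691898, plus strand, 71 bases), within GREB1, a gene known for its oestrogen response, which itself read 5.51. It stood at 11.18, 11.49 and 11.18 with vector, 11.33, 11.29 and 11.42 with Aire, and 11.43, 11.41 and 11.24 with MBD-VP16. The arrays of the 3 groups overlapped. Cluster 7987572 (chr15:41137669-41137740, 71 bases) averaged 10.67, cluster 8164060 (chr9:126813738-126813813, 75 bases) 10.12, cluster 8045287 (chr2:132143133-132143204, 71 bases) 9.36 and cluster 7995320 (chr16:34969280-34969355, 75 bases) 8.99. Their differences from vector ran from -0.06 to 0.33 and none passed (limma adjusted p from 0.12 to 1). Cluster 8164060 lies 18.3 kb from LHX2, a LIM-homeodomain transcription factor, which rose by 1.15 ± 0.10 (SE) with MBD-VP16 (limma adjusted p = 1.46e-04). The cluster itself differed by 0.16 ± 0.10 (SE; limma adjusted p = 0.385).

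Members were compared between groups with limma, fitted to all 25679 clusters and adjusted over all of them by the Benjamini-Hochberg method. A cluster was called where the adjusted p was under 0.05. With Aire against vector, 24 unannotated clusters were called, 14 higher and 10 lower (2.03%), against 4.4% of all clusters, 1.58% higher and 2.82% lower. With MBD-VP16 against vector, 31 were called, 16 higher and 15 lower (2.62%), against 9.89% of all clusters, 4.75% higher and 5.14% lower. Both comparisons use the same 3 vector arrays. Between MBD-VP16 and Aire, 3 were called, 1 higher and 2 lower (0.253%), against 1.88% of all clusters, 1.8% higher and 0.074% lower. The arrays of the 2 groups did not overlap for 175 unannotated clusters with Aire (14.8%, against 24.9% of all clusters) and for 12.7% with MBD-VP16, against 28.3%. In both comparisons against vector, low signal went with few calls. Of clusters with a mean under 4, Aire changed 5 of 480 unannotated (1.04%) and 19 of 3227 other clusters (0.589%), and of those at 8 or more, 6 of 51 (11.8%) and 532 of 5087 (10.5%). With MBD-VP16 the shares at 8 or more were 6 of 51 (11.8%) and 893 of 5087 (17.6%), and at 6 to 8 they were 5 of 127 (3.94%) and 1123 of 8437 (13.3%). Without Aire replicate 1, 2 or 3 the count with Aire was 11, 10 or 12, when 1.25%, 1.12% and 1.12% of all clusters were called. Without vector replicate 2 it was 14 (1.94% of all clusters), and without vector replicate 3 it was 36 (3.65%). The count with MBD-VP16 was 18 without MBD-VP16 replicate 3 (5.62% of all clusters) and 50 without vector replicate 3 (9.37%). With the array medians set equal, 51 were called with MBD-VP16, 12 higher and 39 lower (12.3% of all clusters), and after a repeated quantile normalization 35 were, 15 higher and 20 lower.

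**Figure D2:**
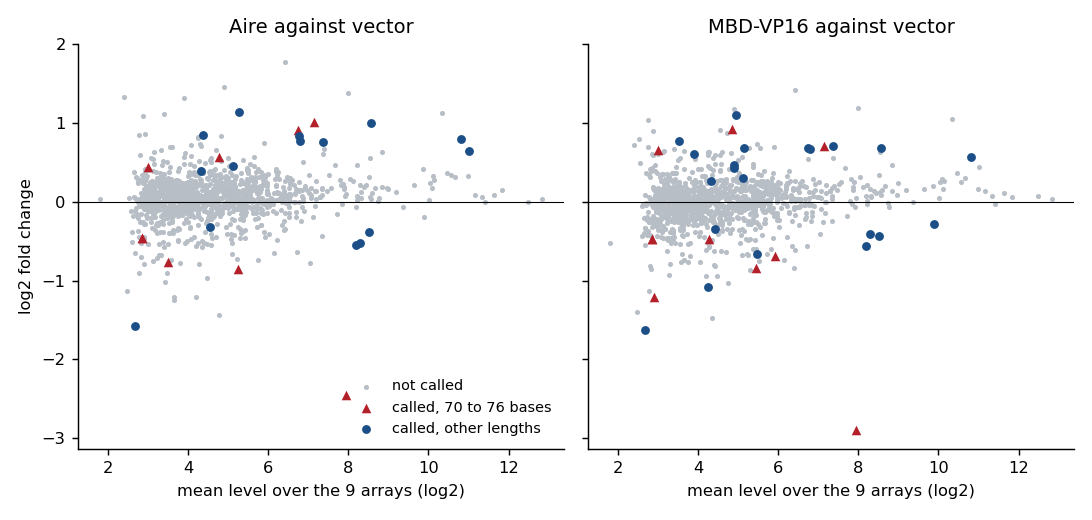
Log2 fold change of each unannotated cluster against vector (vertical axis) and its mean level over the 9 arrays (horizontal axis, log2), for Aire (left) and MBD-VP16 (right). Triangles are called tRNA-sized clusters, circles are called clusters of other lengths, and 1 tRNA-sized cluster stands alone at -2.46 and -2.90.

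Calls fell mostly on the 2 shortest classes. The shares over all clusters were 4.4% with Aire and 9.89% with MBD-VP16. With Aire, 11 of 183 clusters under 70 bases (6.01%; 8 higher, 3 lower) and 9 of 169 tRNA-sized clusters (5.33%; 4 higher, 5 lower) were called, but 2 of 453 at 77 to 150 bases (0.442%) and 2 of 350 at over 150 and up to 500 bases (0.571%). With MBD-VP16 the counts were 10 of 183 (5.46%; 5 higher, 5 lower), 10 of 169 (5.92%; 3 higher, 7 lower), 5 of 453 (1.1%) and 6 of 350 (1.71%). At an unadjusted p under 0.05 the shares of these classes, in the same order, were 21.9%, 13.6%, 9.49% and 14.3% with Aire. With MBD-VP16 they were 20.2%, 17.2%, 12.4% and 9.71%. In neither comparison was a cluster over 500 bases called with limma. At an unadjusted p under 0.05, which 20.2% of all clusters met with Aire and 24.8% with MBD-VP16, there were 3 and 0 of the 23 clusters of over 500 and up to 2000 bases, and 1 and 1 of the 7 longer ones. By the false discovery rate in the authors' deposited table, which 4.69% and 9.99% of all clusters passed, the count over 500 bases was 0 as well. The tRNA-sized count with Aire was 2, 4 or 3 without Aire replicate 1, 2 or 3, was 2 without vector replicate 1 or 2, and was 5, 4 or 4 without MBD-VP16 replicate 1, 2 or 3. The count with MBD-VP16 was 5 without MBD-VP16 replicate 1 or 3. With the array medians set equal, 15 tRNA-sized clusters were called with MBD-VP16, 3 higher and 12 lower. In the main fit the tRNA-sized counts of both comparisons include clusters 7898405 and 7912806, which had identical values on every array.

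**Figure D3:**
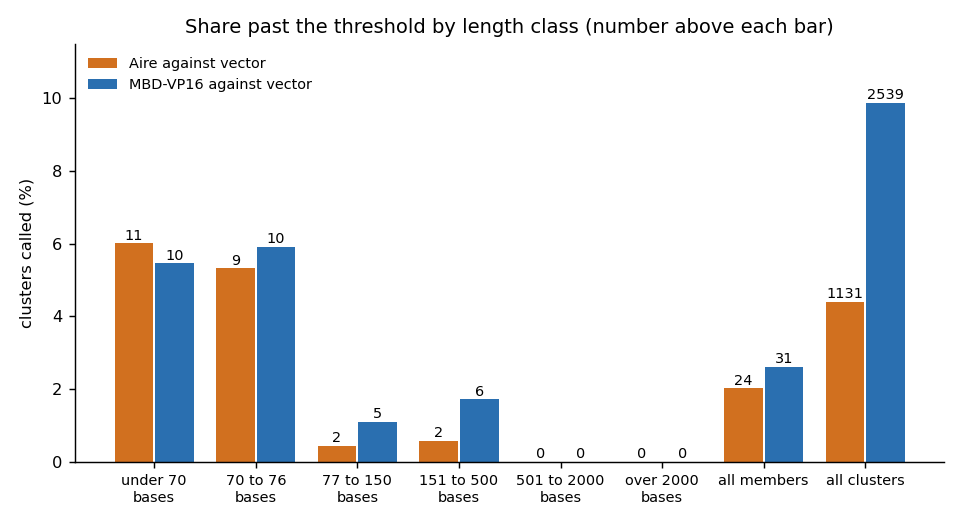
Share of clusters called (limma adjusted p under 0.05, bars from 0, in %) with Aire and with MBD-VP16 against vector, for each length class of the unannotated clusters, for all 1185 of them and for all 25679 clusters, with the number called above each bar. The 2 shortest classes stand at 5.33% to 6.01% and the longer ones at 1.71% or less, beside 4.4% and 9.89% over all clusters.

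One tRNA-sized cluster fell far more than the rest. Cluster 7998927 (chr16:3202609-3202680, minus strand, 71 bases) read 9.65, 9.86 and 9.65 with vector, 7.31, 7.15 and 7.33 with Aire, and 7.09, 6.5 and 6.87 with MBD-VP16. All vector arrays lay over 2 log2 units above all others. The level fell by 2.46 ± 0.14 (SE) with Aire, a fold of 5.49 (limma adjusted p = 1.24e-04), and by 2.90 ± 0.14 (SE) with MBD-VP16, a fold of 7.46 (limma adjusted p = 2.58e-06). These were the third lowest and the lowest log2 fold changes among all 25679 clusters. Both calls were kept without any 1 of the 9 arrays. Between MBD-VP16 and Aire it differed by -0.44 ± 0.14 (SE), which did not pass (limma adjusted p = 0.246). Its nearest annotated cluster, 9.8 kb away, is ZNF213, a zinc finger gene at 6.47, which differed from vector by -0.06 ± 0.09 and 0.03 ± 0.09 (SE; limma adjusted p = 0.784 and 0.873). In the RefSeq table of GRCh38.p14, used only for gene order, 11 tRNA genes stand between ZNF213 and OR1F1, an olfactory receptor gene, which are the genes that flank the cluster. Of these, 5 have its length, and their symbols TRP-TGG3-3, TRP-CGG1-2, TRP-AGG2-7, TRP-TGG3-4 and TRP-TGG3-5 are those of proline tRNA genes. Which of them the probes match was not tested. In the same interval, cluster 7992861 (chr16:3246153-3246225, plus strand, 72 bases) at a level of 4.26 and cluster 7998929 (chr16:3220961-3221031, minus strand, 70 bases) at 4.59 were not called.

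A tRNA gene in the interval between the flanking genes was commoner at tRNA size. Of 169 tRNA-sized clusters, 135 could be placed between the same 2 flanking genes in the RefSeq table, and a tRNA gene stood in that interval for 18 of them (13.3%), with a tRNA gene of exactly the same length for 10. Of 894 placed clusters of other lengths, 17 (1.9%) had a tRNA gene in the interval and 1 had one of the same length. The 18 clusters had a median level of 4.45, with 7.93 the highest. Several of them shared an interval, and clusters 8117531 and 8124467 carried identical values. The 117 placed tRNA-sized clusters without a tRNA gene in the interval had a median of 4.36 and reached 11.33. The brightest tRNA-sized clusters were therefore not among the 18. Aire changed 0 upward and 2 downward of the 18, and MBD-VP16 changed 1 upward and 3 downward, while of the 117 it was 3 and 1 with Aire and 1 and 3 with MBD-VP16. Of all clusters, 1.58% were called higher and 2.82% lower with Aire, and 4.75% and 5.14% with MBD-VP16. At an unadjusted p under 0.05, 23 of all 169 with Aire (13.6%) and 29 with MBD-VP16 (17.2%) differed in either direction, against 20.2% and 24.8% of all clusters.

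A pair of tRNA-sized clusters on chromosome 6 moved in opposite directions with MBD-VP16. Both lie between PRSS16, a serine protease gene of the thymus, and POM121L2, an interval that holds 6 tRNA genes in the RefSeq table, of which TRI-AAT9-1 and TRI-AAT3-1, isoleucine tRNA genes by symbol, have their length of 73 bases. Cluster 8117563 (chr6:27251864-27251937, plus strand) read 4.53, 4.43 and 4.42 with vector, 4.60, 4.99 and 4.52 with Aire, and 5.68, 5.54 and 4.93 with MBD-VP16. It rose by 0.92 ± 0.19 (SE) with MBD-VP16 (limma adjusted p = 0.018), and the call did not survive leaving out vector replicate 2 or MBD-VP16 replicate 1 or 2 (adjusted p up to 0.0709). Cluster 8117565 (chr6:27261671-27261744, plus strand) read 6.16, 6.37 and 6.40 with vector, 5.69, 6.31 and 5.60 with Aire, and 5.63, 5.65 and 5.57 with MBD-VP16. It fell by 0.69 ± 0.17 (SE) with MBD-VP16 (limma adjusted p = 0.0337), and the call was lost in the absence of any 1 vector or MBD-VP16 array (adjusted p up to 0.1). POM121L2 itself rose by 0.55 ± 0.13 (SE; limma adjusted p = 0.0333) from a low level. With Aire neither cluster was called (limma adjusted p = 0.527 and 0.18).

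Other tRNA-sized clusters changed less firmly. Cluster 8148331 (chr8:131747077-131747148, 71 bases) read 3.31, 3.43 and 3.96 with vector and 2.34, 2.62 and 2.11 with MBD-VP16. It fell by 1.21 ± 0.26 (SE; limma adjusted p = 0.0207), a call that leaving out vector replicate 3 or MBD-VP16 replicate 1 or 3 ended (adjusted p up to 0.0754). Cluster 7901227 (chr1:46824517-46824591, 74 bases), which lies within NSUN4, a gene for a mitochondrial RNA methyltransferase, read 5.86, 5.58 and 5.86 with vector and 4.69, 5.26 and 4.84 with MBD-VP16. It fell by 0.84 ± 0.19 (SE; limma adjusted p = 0.0249), and leaving out replicate 1 or 3 of either group ended the call (adjusted p up to 0.0838). NSUN4 differed by -0.24 ± 0.08 (SE; limma adjusted p = 0.0989). With Aire, cluster 8067201 (chr20:55936039-55936110, 71 bases) fell by 0.85 ± 0.20 (SE; limma adjusted p = 0.0479) and cluster 7904865 (chr1:145950996-145951066, 70 bases) by 0.76 ± 0.15 (SE; limma adjusted p = 0.027), and these calls were lost in 8 and 5 of the 9 fits that left out 1 array. Cluster 8067201 lies within the locus of RAE1, an mRNA export factor on the other strand, and RAE1 fell as well, by 0.56 ± 0.07 (SE; limma adjusted p = 0.00505). Clusters 7898405 (chr1:17186693-17186765) and 7912806 (chr1:16874160-16874232), both 72 bases, carried identical values and are 1 measurement, although each enters the counts of calls above. They read 3.08, 3.36 and 3.08 with vector, 2.71, 2.61 and 2.81 with Aire, and 2.69, 2.79 and 2.61 with MBD-VP16, near the lower end of the scale. Both calls of this pair were lost without 1 array, in 8 of 9 fits with Aire and, with MBD-VP16, without MBD-VP16 replicate 1 or 3 (adjusted p up to 0.0673). Cluster 7898355 (chr1:16879957-16880028, 71 bases), 5725 bases from the second of these, rose by 0.44 ± 0.10 with Aire and 0.65 ± 0.10 with MBD-VP16 (SE; limma adjusted p = 0.0472 and 0.00482). It stood at 2.62, 2.61 and 2.67 with vector, at 3.08, 3.28 and 2.85 with Aire and at 3.27, 3.27 and 3.32 with MBD-VP16. Its call with Aire was lost in 8 of the 9 fits without 1 array (adjusted p up to 0.131), and that with MBD-VP16 in none of them.

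A group of risers of 65 to 71 bases was higher on every Aire array and every MBD-VP16 array than on any vector array. Such separation was part of how named clusters were chosen. Of all clusters, 24.9% with Aire and 28.3% with MBD-VP16 showed it in either direction. Cluster 8147988 (chr8:111946957-111947028, plus strand, 71 bases) read 6.52, 6.39 and 6.82 with vector, 7.52, 7.61 and 7.64 with Aire, and 7.08, 7.41 and 7.37 with MBD-VP16. It rose by 1.01 ± 0.13 (SE; limma adjusted p = 0.00579) with Aire and by 0.71 ± 0.13 (SE; limma adjusted p = 0.00906) with MBD-VP16. The nearest annotated cluster, KCNV1, a potassium channel subunit gene, is 960 kb away. Cluster 8055202 (chr2:131031334-131031399, minus strand, 65 bases) read 8.09, 7.79 and 8.13 with vector, 8.92, 9.09 and 9.02 with Aire, and 8.49, 8.76 and 8.82 with MBD-VP16. It rose by 1.01 ± 0.12 (SE; limma adjusted p = 0.00473) and by 0.69 ± 0.12 (SE; limma adjusted p = 0.00806). Aire arrays again lay above the MBD-VP16 arrays, but neither difference between these constructs passed (limma adjusted p = 0.423 and 0.35). Cluster 7973867 (chr14:32954083-32954148, plus strand, 65 bases) was bright: 10.28, 10.19 and 10.57 with vector, 11.12, 11.11 and 11.19 with Aire, and 10.81, 10.94 and 11 with MBD-VP16. It lies within AKAP6, a gene for a protein kinase A anchoring protein, which stood at 4.74 and was not called (limma adjusted p = 0.94 and 0.268). The cluster rose by 0.79 ± 0.10 (SE; limma adjusted p = 0.007) and 0.57 ± 0.10 (SE; limma adjusted p = 0.00985).

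**Figure D4:**
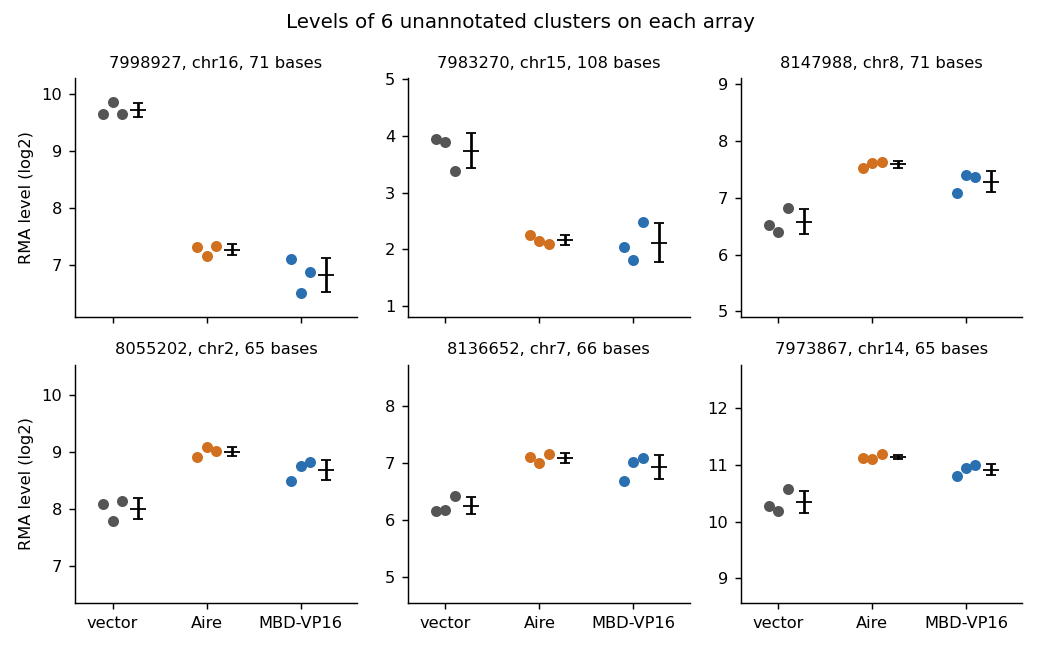
RMA level (log2) on each array of the 2 lowest and the 4 highest unannotated clusters by fold change with Aire among those whose call was kept without any 1 array. Dots are arrays, bars beside them are the mean and SD of 3 arrays, and each panel spans the same number of log2 units. The first 2 panels drop from vector to both constructs, and in the other 4 Aire is above vector with MBD-VP16 between or level with Aire.

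Other risers were dimmer, shorter or less firm. Cluster 8136652 (chr7:141501872-141501938, plus strand, 66 bases) rose by 0.84 ± 0.12 and 0.68 ± 0.12 (SE; limma adjusted p = 0.00934 and 0.00841) from 6.16, 6.17 and 6.42 on the vector arrays. It lies 107 bases from the cluster of TAS2R5, a bitter taste receptor gene, which rose by 0.51 ± 0.10 and 0.40 ± 0.10 (SE; limma adjusted p = 0.0315 and 0.0448). Cluster 8133034 (chr7:63570541-63570606, plus strand, 65 bases) rose by 0.77 ± 0.12 and 0.67 ± 0.12 (SE; limma adjusted p = 0.0125 and 0.0102), and the cluster 98 bases away, to which the table gives the symbol GABPA, rose by 0.64 ± 0.10 and 0.53 ± 0.10 (SE; limma adjusted p = 0.0125 and 0.0123). Without Aire replicate 3 the adjusted p of cluster 8133034 with Aire was 0.057. Cluster 7992893 (chr16:3419261-3419297, plus strand) spans 36 bases and rose by 0.75 ± 0.11 and 0.71 ± 0.11 (SE; limma adjusted p = 0.0115 and 0.00618). Without Aire replicate 2 or 3 its adjusted p with Aire was up to 0.0527. Clusters 8047563 (chr2:203484633-203484699, 66 bases), 8058664 (chr2:212642733-212642805, 72 bases, within ERBB4, a receptor tyrosine kinase gene), 8174975 (chrX:125863022-125863087, 65 bases) and 8054800 (chr2:117783839-117783912, 73 bases) rose with Aire by 1.14 ± 0.19, 0.91 ± 0.21, 0.85 ± 0.18 and 0.57 ± 0.12 (SE; limma adjusted p = 0.0155, 0.0479, 0.0338 and 0.0362). Their calls were lost in 4, 8, 6 and 7 of the 9 fits without 1 array, and with MBD-VP16 they were not called (limma adjusted p from 0.0539 to 0.15).

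Among the 183 clusters under 70 bases, 3 were called lower with Aire and 5 with MBD-VP16. Of all clusters, 2.82% and 5.14% were called lower. Cluster 8132998 (chr7:57254053-57254120, plus strand, 67 bases) read 8.58, 8.62 and 8.58 with vector, 8.05, 7.99 and 8.18 with Aire, and 8.19, 8.19 and 8.18 with MBD-VP16. It fell by 0.52 ± 0.07 (SE; limma adjusted p = 0.00682) and 0.41 ± 0.07 (SE; limma adjusted p = 0.00665), and both calls were kept without any 1 array. Cluster 8055486 (chr2:140977938-140978003, minus strand, 65 bases) fell by 0.54 ± 0.09 and 0.56 ± 0.09 (SE; limma adjusted p = 0.0173 and 0.00661), from 8.47, 8.61 and 8.62 with vector. Its call with Aire was lost without vector replicate 2 or Aire replicate 1 or 2 (adjusted p up to 0.0636). Cluster 7921119 (chr1:156702981-156703049, 68 bases) fell by 1.09 ± 0.25 (SE; limma adjusted p = 0.0272) with MBD-VP16, a call lost in 5 of the 9 fits without 1 array. It overlaps the locus of ISG20L2, an exonuclease gene.

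Several of these short clusters correlated with clusters of the mitochondrial chromosome across the 9 arrays. The mitochondrial chromosome had 29 clusters, all named and so none of them a member, with a median level of 11.88, and 1 rose and 1 fell in each comparison against vector. The pattern was looked for after the values had been seen, so it is given as a description, with correlations across 9 arrays that share their normalization. The counts below take clusters called in the same direction with Aire, so the shared step from vector to Aire enters these correlations. The mitochondrial cluster 8165700 (chrM:5761-5892, minus strand) rose by 0.47 ± 0.07 with Aire and 0.37 ± 0.07 with MBD-VP16 (SE; limma adjusted p = 0.00946 and 0.0107). Of the 14 unannotated clusters that rose with Aire, 7 correlated with it at 0.95 or more, against 47 of the 406 clusters of any kind that rose. They are 8055202, 8147988, 7973867, 8136652, 7992893, 8133034 and 8054800, on 5 chromosomes, with correlations from 0.954 to 0.988. The annotation marks 5 of the 7 as open to cross-hybridisation. The mitochondrial cluster 8165656 (chrM:4402-4470, plus strand) fell by 0.52 ± 0.06 and 0.45 ± 0.06 (SE; limma adjusted p = 0.00579 and 0.00329), and cluster 8132998 correlated with it at 0.977. That is 1 of the 10 unannotated clusters that fell with Aire, against 65 of the 725 clusters of any kind that fell. Of all unannotated clusters, called or not, 0.0844% correlated with 8165656 at 0.95 or more, against 0.284% of all clusters. With 8165700 the shares were 0.591% and 0.226%.

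A further 6 unannotated clusters, all of 67 or 68 bases and on 5 chromosomes, followed another mitochondrial cluster, 8165696 (chrM:5587-5656, minus strand, 69 bases). That cluster read 10.37, 10.93 and 10.66 with vector, 11.46, 11.85 and 11.62 with Aire, and 10.37, 12.05 and 11.91 with MBD-VP16. MBD-VP16 replicate 1 thus stood with the vector arrays and the other MBD-VP16 arrays with Aire. Cluster 8045533 (chr2:140975062-140975129, plus strand) read 4.87, 5.71 and 5.46 with vector, 6.82, 7.56 and 6.97 with Aire, and 5.36, 7.46 and 7.47 with MBD-VP16, the same order at a far lower level. Cluster 8013523 (chr17:22026338-22026405, minus strand) read 3.77, 4.33 and 3.96, then 5.22, 5.76 and 5.45, then 3.87, 5.91 and 5.83 in the same groups, and correlated with the mitochondrial cluster at 0.994. Cluster 8156358 (chr9:95301741-95301808, plus strand) went from 6.72, 7.29 and 7.38 to 8.31, 8.75 and 8.47 and to 7.09, 8.93 and 8.93. The other 3 were 8045804 (chr2:156120525-156120593), 7944765 (chr11:122874303-122874371) and 8147990 (chr8:111947031-111947098), and the last begins 3 bases after the end of riser 8147988. The 6 make up 0.506% of the unannotated clusters, and 12 clusters of all kinds (0.0467%) reached that correlation. None of the 6 was called with all arrays: with Aire, the log2 differences of 0.63 to 1.77 had limma adjusted p from 0.0686 to 0.126, and with MBD-VP16 those of 0.47 to 1.42 had from 0.0703 to 0.194. Without MBD-VP16 replicate 1, an array singled out after its values were seen, all 6 were called in both comparisons. The limma adjusted p then ran from 0.00922 to 0.0448 with Aire and from 0.00158 to 0.0285 with MBD-VP16. The 6 were chosen by correlation with a cluster whose MBD-VP16 replicate 1 stood apart from its group. Leaving that array out removes a spread that the choice had set, so these calls are no separate evidence. All 6 are marked as not open to cross-hybridisation. Whether their probes also take up mitochondrial RNA was not tested.

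**Figure D5:**
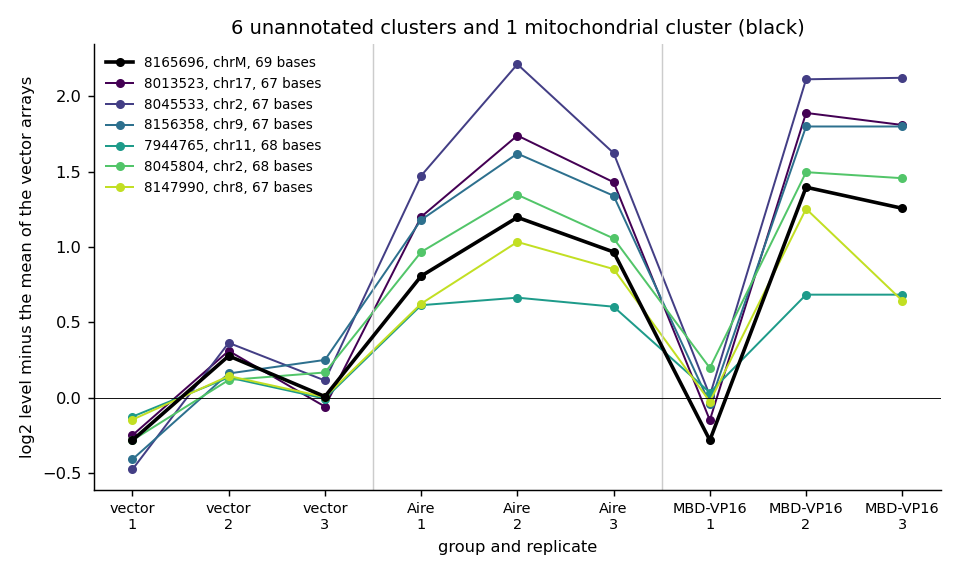
RMA level (log2) on each of the 9 arrays, minus the mean of the vector arrays, of 6 unannotated nuclear clusters (coloured) and the mitochondrial cluster 8165696 (black). All 7 are up on the Aire arrays and on MBD-VP16 replicates 2 and 3, and lie near the vector level on MBD-VP16 replicate 1.

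Some unannotated clusters also lie beside nuclear clusters that the annotation names for the mitochondrial genome. On chromosome 14, cluster 7973867, cluster 7973869 (chr14:32954180-32954250, 70 bases) and cluster 7973871, which has such a name, follow one another, with gaps of 32 and 2 bases. The named cluster had the same mean level, 11.25, and the same differences from vector as the mitochondrial cluster 8165696. Their limma adjusted p were equal as well (0.194 and 0.251), so the pair reads as 1 measurement. Cluster 7973869 averaged 5.89 and differed by 0.74 and 0.69 from vector (limma adjusted p = 0.0658 and 0.0546). In all, 11 unannotated clusters lay within 10 kb of a nuclear cluster named for the mitochondrial genome. On chromosome 5, 2 runs on the minus strand each hold a cluster named for the mitochondrial genome followed by unannotated clusters of 58 or 57 and of 68 bases. On the mitochondrial plus strand, clusters of 68, 58 and 70 bases stand in a row from position 12139. Of the chromosome 5 clusters, 8114211 (chr5:134262280-134262348, 68 bases) was bright at 10.45 and 8113348 (chr5:99384620-99384688, 68 bases) stood at 4.99. Neither was called with Aire or MBD-VP16 (limma adjusted p from 0.141 to 0.808).

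Among longer clusters, 1 changed in both comparisons by a wide margin. Cluster 7983270 (chr15:43994561-43994669, plus strand, 108 bases) read 3.94, 3.90 and 3.38 with vector, 2.26, 2.15 and 2.09 with Aire, and 2.05, 1.81 and 2.49 with MBD-VP16. The vector arrays all lay above the others, at levels near the bottom of the scale. It fell by 1.57 ± 0.19 (SE; limma adjusted p = 0.00572) with Aire and by 1.62 ± 0.19 (SE; limma adjusted p = 0.00121) with MBD-VP16, and both calls were kept without any 1 array. It lies opposite STRC, the gene of the inner ear protein stereocilin, which stood at 5.19 and differed from vector by 0.11 and -0.10 (limma adjusted p = 0.576 and 0.589). Cluster 8128549 (chr6:105278662-105278922, minus strand, 260 bases) within HACE1, a ubiquitin ligase gene, read 4.97, 4.79 and 4.73 with vector and 5.66, 5.34 and 5.53 with MBD-VP16. It rose by 0.68 ± 0.11 (SE; limma adjusted p = 0.0059), kept without any 1 array, while HACE1 differed by 0.09 ± 0.06 (SE; limma adjusted p = 0.428). Cluster 8157888 (chr9:128188063-128188176, 113 bases) rose by 0.78 ± 0.20 (SE; limma adjusted p = 0.0417) with MBD-VP16, and this was lost in 8 of the 9 fits without 1 array.

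Only 3 unannotated clusters were called between the constructs. Cluster 7962197 (chr12:31955892-31955986, minus strand, 94 bases) read 5.17, 4.26 and 4.64 with vector, 4.52, 4.48 and 4.10 with Aire, and 5.62, 5.68 and 6.06 with MBD-VP16, so that only MBD-VP16 stood apart. It was higher with MBD-VP16 than with Aire by 1.42 ± 0.23 (SE; limma adjusted p = 0.0121) and than with vector by 1.1 ± 0.23 (SE; limma adjusted p = 0.0172). Without MBD-VP16 replicate 3 both calls were lost (adjusted p up to 0.0634), and the first also without Aire replicate 3 (adjusted p = 0.0569). Its neighbour H3-5, a histone H3 variant gene 10.7 kb away, differed by 0.05 ± 0.12 (SE) from Aire and -0.06 ± 0.12 (SE) from vector. Cluster 8129069 (chr6:115188070-115188140, 70 bases) read 4.49, 4.10 and 4.25 with Aire, 2.53, 3.59 and 2.68 with MBD-VP16, and 3.74, 3.55 and 3.48 with vector. The vector mean lay between the other 2, but MBD-VP16 replicate 2 stood above vector replicates 2 and 3. The cluster was lower with MBD-VP16 than with Aire by 1.35 on the log2 scale (difference -1.35 ± 0.25, SE; limma adjusted p = 0.0275). Cluster 8148196 (chr8:124354654-124354722, 68 bases), opposite ATAD2, a chromatin ATPase gene, differed between MBD-VP16 and Aire by -0.85 ± 0.17 (SE; limma adjusted p = 0.0424) and between MBD-VP16 and vector by -0.66 ± 0.17 (SE; limma adjusted p = 0.0403). The call against vector was lost in 6 of the 9 fits without 1 array (adjusted p up to 0.116). ATAD2 fell with MBD-VP16 by 0.29 ± 0.07 (SE; limma adjusted p = 0.0265) and with Aire by 0.36 ± 0.07 (SE; limma adjusted p = 0.0213), where cluster 8148196 differed by 0.18 ± 0.17 (SE; limma adjusted p = 0.594). The calls of clusters 8129069 and 8148196 against Aire were lost in 7 of the 9 fits without 1 array, and the count of 3 was 0 without Aire replicate 3 and 1 without MBD-VP16 replicate 3 or vector replicate 2.

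Unannotated clusters lay on all nuclear chromosomes, 573 on the plus and 612 on the minus strand. Chromosome 1 held 120 (10.1%, against 10.2% of all clusters), and their share of a chromosome's clusters was lowest on chromosome 19, 33 of 1547 (2.13%), and among the larger counts highest on chromosomes 8 and 4, 66 of 929 (7.1%) and 67 of 956 (7.01%). Annotated genes were close. Of the 1185, 458 overlapped a cluster with an Entrez identifier (38.6%, exact 95% interval 35.9% to 41.5%), 245 on the same and 213 on the opposite strand, 166 lay under 10 kb away, 367 at 10 to 100 kb and 194 farther. The median gap was 7.51 kb. Clusters of 77 to 150 bases overlapped a gene more often (44.2%) than tRNA-sized ones (31.4%) and those under 70 bases (26.8%).

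Fold changes of unannotated clusters and of their neighbours had low correlations. Across pairs of cluster and nearest gene, which share array and normalization, the fold changes correlated at 0.137 with Aire and 0.184 with MBD-VP16 for 449 overlapping pairs, at 0.178 and 0.107 for 161 pairs under 10 kb apart. They stood at -0.01 and -0.01 for 351 pairs 10 to 100 kb apart, and at 0.119 and -0.04 for 184 pairs over 100 kb apart. In the overlapping pairs the values were 0.169 and 0.231 on the same strand and 0.103 and 0.125 on opposite strands. These describe pairs in the same 9 arrays, with no test. The neighbour itself was called for 65 unannotated clusters with Aire, and 4 of these (6.15%) were called, against 19 of 1080 (1.76%) with an uncalled neighbour. With MBD-VP16 it was 7 of 134 (5.22%) and 23 of 1011 (2.27%). Over all clusters the shares called were 4.4% with Aire and 9.89% with MBD-VP16. The 65 clusters had 57 different neighbours between them, and the 134 had 108. Strongly changed genes stood beside unannotated clusters that were not called. The cluster of TRIM43 and TRIM43B, genes of a family expressed in the early embryo, went from 4.65 to 10.17 with MBD-VP16, a log2 fold change of 5.52 ± 0.22 (SE; limma adjusted p = 5.36e-07), and the tRNA-sized cluster 8053795, 40.5 kb away, differed by 0.20 ± 0.08 (SE; limma adjusted p = 0.17). DPRX, a homeobox gene, rose by 2.30 ± 0.22 (SE; limma adjusted p = 3.44e-04), and cluster 8031011, 2.13 kb away, differed by 0.07 ± 0.12 (SE; limma adjusted p = 0.782). ETV5, an ETS transcription factor gene, fell by 1.40 ± 0.21 (SE; limma adjusted p = 0.0109) with Aire, and the overlapping cluster 8092594 differed by -0.02 ± 0.13 (SE; limma adjusted p = 0.952). These 3 pairs were picked after their values were seen. Beside all neighbours called at 2-fold or more, the 4 unannotated clusters with Aire differed by -0.02 to 0.11 (limma adjusted p from 0.482 to 0.952) and the 8 with MBD-VP16 by -0.17 to 0.20 (limma adjusted p from 0.17 to 0.88).

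Among the listed genes of RNA polymerase III, its factors and tRNA maturation, more were called lower than higher in both comparisons against vector. The polymerase list also holds MAF1, a repressor of the polymerase, and counts it among the lower calls with MBD-VP16. It differed by -0.30 ± 0.08 (SE; limma adjusted p = 0.047). Of 25 genes of RNA polymerase III and its initiation factors, 22 were measured: 1 rose and 3 fell with Aire, and 1 rose and 7 fell with MBD-VP16, with median log2 differences of -0.16 and -0.22, against 0.03 and 0.00 over all clusters. Of 26 genes of tRNA maturation, 23 were measured: 0 rose and 7 fell with Aire, and 2 rose and 9 fell with MBD-VP16, with medians of -0.19 and -0.30. Of all clusters, 1.58% were called higher and 2.82% lower with Aire, and 4.75% and 5.14% with MBD-VP16. The median levels of the lists were 7.93 and 7.54. At 8 or more, clusters of other kinds also had more lower calls, 356 against 176 with Aire and 606 against 287 with MBD-VP16. At 6 to under 8, lower calls were 284 against 148 higher with Aire, but 551 against 572 higher with MBD-VP16. POLR3C, a subunit of the polymerase, went from 9.23 ± 0.12 with vector to 8.30 ± 0.08 with Aire and 8.51 ± 0.05 with MBD-VP16 (SD, n = 3), and fell by 0.93 ± 0.08 and 0.72 ± 0.08 (SE; limma adjusted p = 0.00132 and 9.4e-04). GTF3C4, a subunit of the factor that binds the internal promoter, fell by 0.48 ± 0.07 and 0.57 ± 0.07 (SE; limma adjusted p = 0.00911 and 0.0013). GTF3A, which binds the 5S rRNA gene, fell by 0.36 ± 0.07 and 0.44 ± 0.07 (SE; limma adjusted p = 0.0274 and 0.00587), and POLR3GL, a polymerase subunit, rose by 0.45 ± 0.09 and 0.47 ± 0.09 (SE; limma adjusted p = 0.0274 and 0.0115). RPP30, a subunit of the RNase P that trims the leading end, fell by 0.46 ± 0.07 and 0.54 ± 0.07 (SE; limma adjusted p = 0.0096 and 0.00148), and TRMT6, part of a tRNA methyltransferase, by 0.43 ± 0.06 in each (SE; limma adjusted p = 0.0107 and 0.00369). RPP25, another RNase P subunit, rose by 0.95 ± 0.12 (SE; limma adjusted p = 0.0017) with MBD-VP16. It was the 1 gene of these lists called between the constructs, at 0.70 ± 0.12 (SE; limma adjusted p = 0.0191), and that call was lost without any 1 Aire array or MBD-VP16 replicate 1 or 2. For both lists together the 11 calls with Aire were 5, 4 or 4 without Aire replicate 1, 2 or 3 and 6 or 5 without vector replicate 1 or 2, and the 19 with MBD-VP16 were 12 without MBD-VP16 replicate 3.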

How the data were processed

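Whole-transcript arrays measured RNA from 9 HEK293 samples, 3 in each group. The deposited values are RMA log2 levels made by the authors, per the submitters' processing notes, so each array had already been brought to a common distribution. The authors' deposited comparison table gives names, positions, a fold ratio, log2 fold changes, raw p-values and a false discovery rate (FDR), per the file headers, and which test made them is not stated. Columns of per-array values in that table, 9 in number, were left out. For the positions no build is named (not given in the sources used here), and no sequence was read. RefSeq names and gene order (GRCh38.p14) came from a gene table, in which 19079 of 19473 Entrez identifiers matched.

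limma 3.58.1 (R 4.3.3; lmFit and eBayes without trend, tested on simulated data) was fitted to all 25679 clusters and 9 arrays with group means only, and p-values were adjusted over all of them by Benjamini-Hochberg. The threshold was 0.05. A neighbour was the nearest cluster with an Entrez identifier, by the gap between edges. A cluster counted as placed between RefSeq genes where the gap between its flanking genes was within 1.5 times that in the deposited table. Named clusters were the 8 highest and 8 lowest fold changes per comparison against vector among called clusters with groups that did not overlap (5 and 5 between the constructs), the 5 highest and 5 lowest called tRNA-sized ones, the brightest 5 of each kind and the 3 longest, plus up to 4 genes per list. Clusters named for likeness to mitochondrial ones, and those beside strongly changed genes, were chosen after their values were seen. The members and lists were chosen with earlier results of these data known. Alternatives were a repeated quantile normalization, equal array medians, a mean of at least 5, an intensity trend, a replicate block, 65 to 95 bases as tRNA size, the authors' FDR, and each array left out. One marker gene is not reported here.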

Additional observations from a re-analysis of the deposited data

How the results depend on the processing

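With an intensity trend, 53 unannotated clusters were called with Aire (8.99% of all clusters were), and with equal array medians 51 were with MBD-VP16 (12.3% of all clusters). Leaving out 1 array at a time gave 10 to 36 calls with Aire, 18 to 50 with MBD-VP16 and 0 to 4 between the constructs. For tRNA-sized clusters the ranges were 2 to 8, 5 to 12 and 0 to 1, and for the RNA polymerase III and tRNA maturation genes 4 to 11, 12 to 19 and 0 to 1. tRNA-sized calls with Aire were 5 among clusters with a mean of at least 5, 5 by the FDR in the authors' deposited table and 19 when the class was widened to 65 to 95 bases. With MBD-VP16 they were 6 and 20 under the first and last of these, and between the constructs 0 and 3. The wider class had a median level of 4.22. The deviations of same-numbered arrays from their group means had low correlations (from -0.07 to 0.13). With 3 arrays a group this cannot show whether the numbers pair samples, and the labels do not say so. With a replicate block the tRNA-sized calls were 4 with Aire, 10 with MBD-VP16 and 0 between the constructs, and the listed genes called with Aire were 7. Counting neighbours on the same strand only, 20.8% overlapped a gene, and for pairs 50 kb or more apart the correlations of fold changes were 0.037 and -0.085. The cause of these shifts was not tested. Over all settings no named cluster reversed direction, and 7 of 19 with Aire, 12 of 22 with MBD-VP16 and 0 of 3 between the constructs kept their call in every setting that could be run for them, since clusters with a mean under 5 drop out of the stricter filter. Most unannotated clusters are dim, and their median SE of 0.149, against 0.104 over all clusters, limits what 3 arrays a group can show.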
